A study of Mus musculus with 11 samples.

Results

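This report describes 7 small nucleolar RNA (snoRNA) host genes, Gas5, Snhg1, Snhg3, Snhg5, Snhg6, Snhg8 and Snhg12, and the nuclear long non-coding RNAs (lncRNAs) Malat1 and Neat1, in tumor T cells of mice with and without LAG-3 blockade. The 9 genes were chosen by name. All 9 were found among the 32469 gene symbols of the table, and the low-count filter, which left 6949 genes for testing, kept each of the 9. Bulk RNA-seq was measured in 11 libraries, a library per mouse, from 5 untreated mice and 6 mice given anti-LAG-3 (labelled aLAG3; clone C9B7W, 200 µg per mouse, injected into the peritoneum on days 14 and 16 after inoculation). All mice were wild type female C57BL/6, bought at 8 weeks of age, and carried Lewis lung carcinoma, a mouse lung tumor cell line, under the skin of both flanks. A first tumor was excised on day 14, and the deposited design and the study's methods differ on the day of the second excision, so the time from treatment to sampling is uncertain. The cells were a sorted fraction of the CD8+PD-1+Ly108+TIM-3- cells, which the study calls precursor exhausted cells, the stem-like T cells of a tumor that can renew themselves and give rise to terminally exhausted cells. The labels call them T cells. The comparison asks what blocking LAG-3, an inhibitory receptor of T cells, does to these cells.

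snoRNAs guide the chemical modification of ribosomal RNA: box C/D snoRNAs direct methylation and box H/ACA snoRNAs direct the change of uridine to pseudouridine. Most are cut out of the introns of a host gene after splicing. Many host RNAs code for no long protein, begin with a tract of pyrimidines as ribosomal protein mRNAs do, and are destroyed by nonsense-mediated decay when they are translated, so that their level rises when translation is blocked or cells stop growing. Malat1 and Neat1 stay in the nucleus, Malat1 at nuclear speckles, which hold splicing factors, and Neat1 as the scaffold of paraspeckles.

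Untreated libraries totalled 317449 to 1271063 counts and anti-LAG-3 libraries 313524 to 1901374. Levels are given as CPM, counts scaled to the library total with edgeR's TMM factor. Sums of markers, and the 1.58 to 9.57 CPM to which 3 counts correspond, use the library total without that factor. Of the T cell markers, a list of 6 (Cd8a, Cd8b1, Cd3e, Cd3d, Cd3g and Trac) summed to 4846 to 5141 CPM in untreated and 4880 to 5388 CPM in anti-LAG-3 libraries. Pdcd1, the gene of PD-1, stood at 681 ± 68.3 CPM (SD, n = 5) and 575 ± 96.3 CPM (n = 6), a log2 fold change of −0.24 (SE 0.10) with an unadjusted edgeR p of 0.0268 that came to 0.9996 after adjustment. Slamf6, the gene of Ly108, stood at 106 ± 10.1 and 92.8 ± 13.5 CPM (log2 fold change −0.17), and whether these values bear on the members was not tested. The 9 myeloid markers summed to 15.3 to 42.4 CPM in untreated and 11.8 to 95.7 CPM in anti-LAG-3 libraries, with S100a8 at 0 in all. Of 3 CD4 T cell markers, Cd4 and Foxp3 had at most 1 count in any library and Cd40lg at most 12, and the list summed to at most 14.7 CPM in untreated and 19.1 CPM in anti-LAG-3 libraries. The 3 natural killer cell markers summed to at most 3.19 CPM. The B cell markers summed to 78.8 to 108 CPM in untreated and 70.2 to 118 CPM in anti-LAG-3 libraries, most of it Ighm (80.5 ± 13.2 and 79.9 ± 26.0 CPM), and the 5 fibroblast and endothelium markers to 137 to 201 and 148 to 214 CPM, most of it Pecam1 (170.3 ± 22.6 and 175 ± 24.6 CPM). In bulk libraries, fewer cells of a type and less RNA per cell cannot be told apart.

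The 7 host genes carry 29 annotated snoRNA or small RNA entries within their bounds (GENCODE M21 on GRCm38). Gas5, at chr1:161034422-161038539 on the + strand, holds 10 of them and Snhg1, at chr19:8723475-8726443 (+), holds 8. Snhg12, at chr4:132308623-132311024 (+), holds 5, among them the H/ACA RNAs Snora16a, Snora44 and Snora61 and the C/D RNA Snord99. Snora16a in Snhg12 and Snord80 in Gas5 are each entered again at overlapping bounds, so not every entry is a distinct snoRNA. Snhg3, at chr4:132348014-132353686 (−), lies 36989 bases from Snhg12 and holds Snora73a and Snora73b. Snhg5, at chr9:88521050-88522929 (−), holds Snord50a and Snord50b. Snhg6, at chr1:9941959-9944118 (−), holds Snord87 and Snhg8, at chr3:123507552-123508404 (−), holds Snora24. Malat1, at chr19:5795690-5802672 (−), and Neat1, at chr19:5824708-5845478 (−), are neighbours 22035 bases apart and hold no snoRNA. Only Snora73b and Snord87 lie in introns of every annotated transcript of their host, while the other 27 entries overlap an exon of at least 1 transcript, since the annotation includes transcripts that keep introns.

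The bases around the transcription start are shown for the members with a RefSeq promoter window (GRCm38.p6), because some of the host genes hold the same short motifs there, which their choice did not use. Each run gives 60 bases, 40 before the start and 20 from it on, 5′ to 3′ on the transcribed strand. Capitals mark TATA within 40 to 16 bases before the start and CTTT within 10 bases before to 20 bases after it.
Gas5, chr1:161035126-161035185 (+): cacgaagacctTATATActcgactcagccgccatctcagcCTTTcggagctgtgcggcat
Snhg12, chr4:132308638-132308697 (+): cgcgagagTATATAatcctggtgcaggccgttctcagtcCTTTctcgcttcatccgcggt
Snhg8, chr3:123508317-123508376 (−): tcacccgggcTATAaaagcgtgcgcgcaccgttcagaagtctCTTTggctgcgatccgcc
Snhg5, chr9:88522878-88522937 (−): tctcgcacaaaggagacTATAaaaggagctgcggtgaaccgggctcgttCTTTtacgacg
Snhg1, chr19:8723447-8723506 (+): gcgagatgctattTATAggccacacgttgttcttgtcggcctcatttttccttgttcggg
Snhg3, chr4:132353667-132353726 (−): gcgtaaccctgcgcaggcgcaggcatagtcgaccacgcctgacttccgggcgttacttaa
Malat1, chr19:5802653-5802712 (−): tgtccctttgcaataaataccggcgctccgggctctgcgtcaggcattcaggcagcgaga

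Gas5, Snhg5, Snhg8 and Snhg12 held both motifs, Snhg1 held TATA without CTTT, and Snhg3 and Malat1 held neither. Gas5 has a second window, with a start upstream of the one shown, which held neither. Of all 32851 RefSeq windows, 5.91% held TATA, 11.6% held CTTT on the transcribed strand (21.8% on either strand) and 0.874% held both TATA and CTTT on the transcribed strand. Among 6357 windows of genes tested the shares were 3.10%, 9.39% (16.5%) and 0.409%. The motifs were chosen after the sequences were seen, TATA reads the same on both strands, and no overlap with other motifs was searched for. A match is a description of these letters and not a site. Windows for Snhg6 and Neat1 were not used here.

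The mature snoRNAs were nearly out of reach of these libraries, which were made from polyadenylated RNA. Of 101 rows whose symbol begins with Snord, Snora or Scarna, 51 had any count, none passed the filter, and together they held 573 counts, 0.00653% of all. Further snoRNA rows stand under Gm symbols and are not in this count. The rows of snoRNAs nested in the 7 hosts held 107 counts in all 11 libraries, 64 of them on Snora73b. What follows therefore describes host and nuclear transcripts, not snoRNAs.

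No difference between the groups passed the test in any of the 9 genes. In the quasi-likelihood test of edgeR, adjusted by the Benjamini-Hochberg method over all genes tested, 0 of 9 members had an adjusted p under 0.05 (0% of the 6949 genes), and the adjusted p was 0.9996 for each of the 9. Malat1 was the 1 member with an unadjusted p under 0.05, as had 258 genes (3.71%), of which 1.71% of all genes tested were higher with anti-LAG-3, as Malat1 was, and 2% lower. The likelihood ratio test of edgeR gave 0 genes with an adjusted p under 0.05 and 307 (4.42%), none of them a member, with an unadjusted one. DESeq2 gave 0 and 163 (2.35%), again without a member. The log2 fold change was above 0 for 7 of 9 members (51.1% of all genes) and below 0 for 2 (48.9%), with a median of 0.029, beside 0.0041 over all genes tested. In absolute size the members' median was 0.054 and that of all genes 0.11. The CPM ranges of the groups overlapped for all 9 members, and did not for 0.489% of the genes tested.

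**Figure D1:**
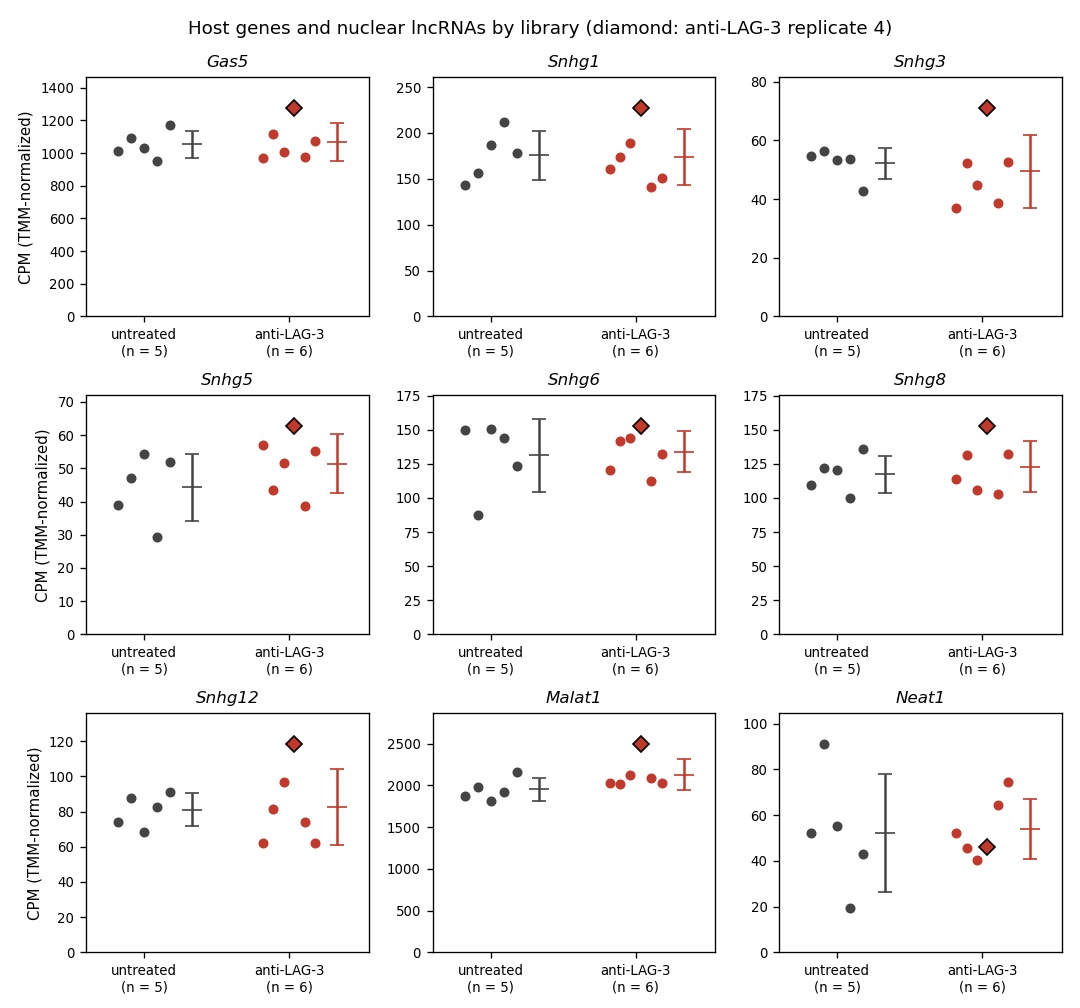
CPM of each gene (y axis, from 0, TMM-normalized) in the 5 untreated and 6 anti-LAG-3 libraries, with the mean and SD beside the points and anti-LAG-3 replicate 4 as a diamond. The groups overlap in all 9 panels and the diamond is the highest point in every panel but that of Neat1.

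Gas5, named for its rise in growth-arrested cells and host of box C/D snoRNAs, was the most abundant host. The 5 untreated libraries (replicates 1 to 5) held it at 1013, 1094, 1033, 953 and 1171 CPM, and the anti-LAG-3 libraries from 969 to 1273 CPM with a median of 1038. Of the 6 anti-LAG-3 libraries, 5 fell within the untreated range and 1, replicate 4, stood above it. The means were 1053 ± 83.1 CPM (SD, n = 5) and 1069 ± 115 CPM (n = 6), a log2 fold change of 0.029 (SE 0.078, 95% interval −0.13 to 0.19), which bounds the change between 0.914-fold and 1.14-fold. The difference in mean log2 CPM, 0.019, did not pass (two-sided exact permutation p = 0.829 over 462 splits).

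Snhg1, host of a row of box C/D snoRNAs including Snord22, stood at 144, 157, 187, 212 and 178 CPM in the untreated libraries and at 142 to 227 CPM (median 167) in the anti-LAG-3 libraries. The groups overlapped, with 1 treated library above and 1 below the untreated range. Its log2 fold change was 0.018 (SE 0.12, 95% interval −0.23 to 0.27; exact permutation p = 0.894), and it turned to −0.00024 with the primer barcode of the libraries as a covariate. The permutation test is on the difference in mean log2 CPM, which was −0.019 for Snhg1, so no direction is given. Snhg5, host of Snord50a and Snord50b, had a log2 fold change of 0.20 (SE 0.18, 95% interval −0.17 to 0.57). Untreated libraries held it at 39.1, 47.0, 54.2, 29.2 and 51.8 CPM, and anti-LAG-3 libraries at 38.6 to 62.6 CPM (median 53.4). Of the treated libraries, 3 lay above the untreated range and 3 within it, and untreated replicate 4 was the lowest of all, on 12 counts. The difference did not pass (exact permutation p = 0.258), and its interval runs from 0.891-fold to 1.48-fold.

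Snhg6, host of the C/D RNA Snord87, gave 150.0, 87.8, 151, 144 and 123 CPM in the untreated libraries and 113 to 152 CPM (median 137) in the treated ones. Untreated replicate 2 stood alone at the bottom, and 5 of 6 anti-LAG-3 libraries lay within the untreated range. The log2 fold change was −0.0069 (SE 0.12, 95% interval −0.26 to 0.24; exact permutation p = 0.786 for the difference in mean log2 CPM, 0.047). The signs of these 2 measures differ, and with no filter on low counts the fold change was 0.0050, so no direction is given.

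Snhg3, host of the H/ACA RNAs Snora73a and Snora73b, which take part in the processing of ribosomal RNA, stood at 54.7, 56.4, 53.3, 53.6 and 42.8 CPM in the untreated libraries. The anti-LAG-3 libraries spread more widely, from 37.0 to 70.9 CPM (median 48.6), with 1 above, 2 below and 3 within the untreated range. Their coefficient of variation was 25.1% against 10.3% in the untreated group, a difference that was not tested. Farthest out in their groups were anti-LAG-3 replicate 4, at 70.9 CPM, and untreated replicate 5, at 42.8 CPM. The coefficients were not taken without these libraries. The log2 fold change was −0.054 (SE 0.17, 95% interval −0.41 to 0.31; exact permutation p = 0.537), and it was 0.029 among the libraries with primer barcode 9 alone. The Snhg3 counts are uncertain: 60.1% of the distinct 50-base stretches of its transcripts also occur in transcripts of Rcc1, Gm17300, Snora73a or Snora73b, and Rcc1 overlaps it on the same strand. Rcc1 itself held 149 counts in all libraries, against 452 for Snhg3.

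Snhg8, host of the H/ACA RNA Snora24, was found at 109, 122, 120, 99.9 and 136 CPM in the untreated libraries and at 103 to 152 CPM (median 122) in the treated ones. All but replicate 4 of the anti-LAG-3 libraries lay within the untreated range. Its log2 fold change was 0.094 (SE 0.12, 95% interval −0.15 to 0.34; exact permutation p = 0.623). Snhg12, host of both kinds of snoRNA, ran at 74.2, 87.8, 68.6, 82.8 and 91.0 CPM in the untreated libraries and at 62.3 to 118 CPM (median 77.8) with anti-LAG-3. Treated libraries were found on both sides of the untreated range, 2 above it and 2 below. The log2 fold change was 0.078 (SE 0.16, 95% interval −0.25 to 0.41; exact permutation p = 0.983). The difference in mean log2 CPM, on which the permutation test rests, was −0.0023, of the opposite sign.

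Taken as a sum, the 7 hosts held 0.159% to 0.178% of the counts of an untreated library and 0.147% to 0.206% of those of an anti-LAG-3 library. The mean shares were 0.166% ± 0.00763 (SD, n = 5) and 0.168% ± 0.0210 (n = 6). Gas5 gave 63.6% ± 2.34 of the host counts in the untreated and 63.6% ± 1.67 in the anti-LAG-3 group.

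Malat1 was the member nearest to a difference. The untreated libraries held 1870, 1984, 1810, 1925 and 2161 CPM, and the anti-LAG-3 libraries 2017 to 2490 CPM with a median of 2061. Untreated replicate 5 lay above 5 of the 6 treated libraries, and the other 4 untreated libraries lay below all of them. The means were 1950 ± 134 CPM (SD, n = 5) and 2130 ± 181 CPM (n = 6), and the log2 fold change was 0.13 (SE 0.063, 95% interval 0.0021 to 0.26), or 1.10-fold. The unadjusted edgeR p was 0.0466 and the adjusted one 0.9996, with 239 of the 6949 genes at or below that unadjusted p, and the exact permutation p was 0.0779. Without anti-LAG-3 replicate 4 the log2 fold change was 0.075 with an unadjusted p of 0.217 in edgeR's test, and without untreated replicate 5 it was 0.17 with an unadjusted p of 0.0144.

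Neat1 was the most variable of the 9 in the untreated group. Its untreated libraries held 52.3, 90.9, 55.0, 19.5 and 42.8 CPM, from 8 counts in replicate 4, and the anti-LAG-3 libraries 40.4 to 74.4 CPM (median 49.2). All 6 treated libraries lay within the range of the untreated ones, whose coefficient of variation was 49.5% beside 24.1%. The log2 fold change was 0.0085 (SE 0.22, 95% interval −0.44 to 0.46), and −0.098 among the libraries with primer barcode 9. In mean log2 CPM the groups differed by 0.16 (exact permutation p = 0.673). Malat1 was on average 47.9 ± 30.2 times (SD, n = 5) as high as Neat1 in CPM in the untreated and 41.6 ± 10.8 times (n = 6) as high in the anti-LAG-3 libraries. The untreated mean includes a ratio of 98.75 in replicate 4, on 8 Neat1 counts, while the other untreated libraries ran from 21.8 to 50.5. These ratios do not take length into account.

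**Figure D2:**
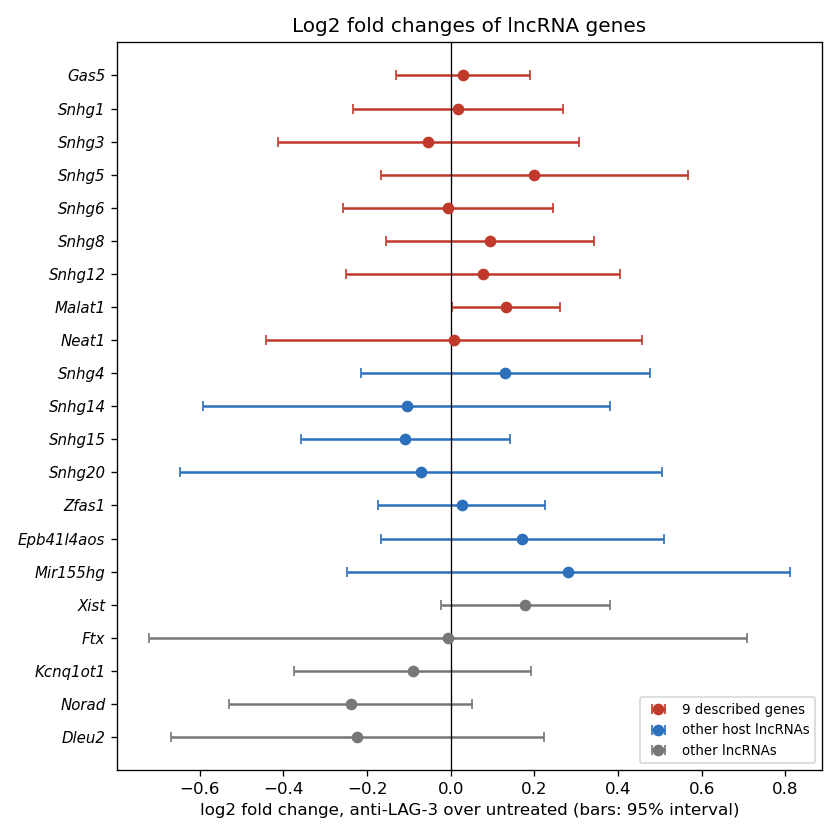
Log2 fold change (x axis, anti-LAG-3 over untreated, edgeR) with its 95% interval for the 9 described genes, 7 other host lncRNAs and 5 other lncRNAs past the filter. The interval of Malat1 alone leaves out 0, with its lower end at 0.0021.

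The library preparation carried 3 primer barcodes, 8, 9 and 10, of which barcode 9 marked 3 untreated and 3 anti-LAG-3 libraries, barcode 8 marked 1 and 3, and barcode 10 marked 1 untreated library. Within barcode 9 the differences in mean log2 CPM were 0.16 for Malat1, 0.16 for Snhg5, 0.13 for Snhg1, 0.12 for Snhg12, 0.11 for Snhg8, 0.056 for Gas5, 0.045 for Snhg3, −0.034 for Snhg6 and −0.054 for Neat1. The exact permutation p lay between 0.3 (Malat1) and 1 (Snhg3), and with 3 against 3 it cannot go below 0.1. Barcode 8 holds a single untreated library, so no test could be made within it. There the 3 anti-LAG-3 libraries differed from that library, untreated replicate 4, by 1.46 for Neat1, 0.67 for Snhg5, 0.17 for Snhg8, 0.11 for Malat1, 0.094 for Gas5, −0.11 for Snhg12, −0.16 for Snhg6, −0.24 for Snhg3 and −0.41 for Snhg1 in mean log2 CPM. Snhg1, Snhg3, Snhg12 and Neat1 thus had opposite signs within the barcodes.

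Anti-LAG-3 replicate 4 stood apart from the other libraries in these genes. It had the highest CPM of all 11 libraries for 8 of the 9 members, all but Neat1, while 499 of the 6949 genes tested (7.18%) were highest there. Its log2 CPM exceeded the mean of the other libraries by a median of 0.38 over the members and 0.022 over all genes tested. Of the 7 other host lncRNAs 2 were highest in it, and of the 19 protein-coding snoRNA hosts 4. At the other end, untreated replicate 4 was the lowest library for 4 members, Gas5, Snhg5, Snhg8 and Neat1, and for 12.1% of all genes.

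**Figure D3:**
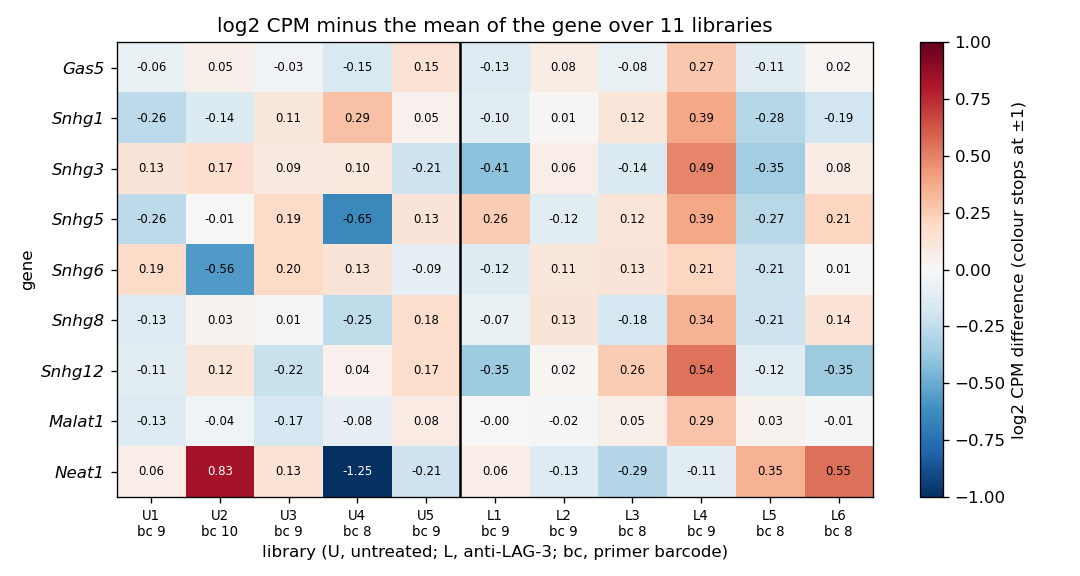
Log2 CPM of each gene (rows) in each library (columns; U, untreated; L, anti-LAG-3; bc, primer barcode) minus the mean of the gene over the 11 libraries. Column L4, anti-LAG-3 replicate 4, is above the mean in 8 of 9 rows, and the widest range is that of Neat1.

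In anti-LAG-3 replicate 4 the 9 myeloid markers summed to 11.8 CPM, below the 15.3 to 95.7 CPM of the other libraries. Pdcd1, Slamf6 and Havcr2, genes of proteins used in the sort, summed to 580.5 CPM, below the 609 to 856 CPM of the others. The CD8 T cell markers, at 4880 CPM, were inside the range of the others. Whether any of these values bears on the high members was not tested. Without that library the log2 fold changes were −0.033 for Gas5, −0.083 for Snhg1 and −0.073 for Snhg12, each with the opposite sign, and the median over the 9 members was −0.033 in place of 0.029.

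**Figure D4:**
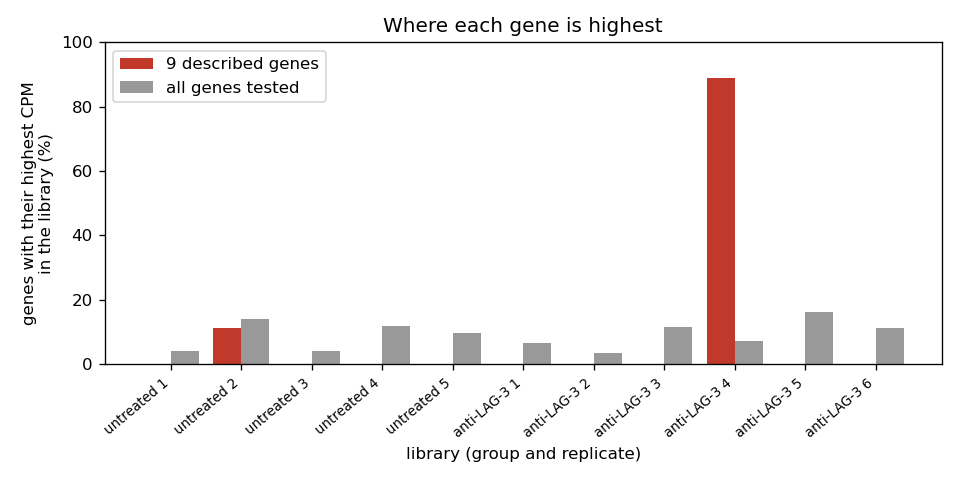
Percent of genes (y axis) whose highest CPM fell in each library (x axis), for the 9 described genes and for all 6949 genes tested. Anti-LAG-3 replicate 4 is highest for 8 of the 9 genes and for 7.18% of all genes.

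Malat1 and Gas5, which ranked 66th and 134th by mean CPM of the genes tested, had the lowest coefficients of variation of the 9, 6.89% and 7.90% in the untreated and 8.51% and 10.8% in the anti-LAG-3 group. Counting error takes a smaller share of this measure as counts grow.

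Per kilobase of the longest annotated transcript, Gas5 had the highest level of the 9, 412 ± 32.5 CPM per kilobase in untreated (SD, n = 5) and 418 ± 45.1 in anti-LAG-3 libraries (n = 6). Malat1 followed at 279 ± 19.3 and 305 ± 25.9 CPM per kilobase, and its range over all libraries did not meet that of Gas5. Snhg6 (161 and 164) and Snhg8 (151 and 158) came next and overlapped each other. Below them Snhg3 (89.8 and 85.0), Snhg1 (64.4 and 63.7), Snhg12 (52.6 and 53.6) and Snhg5 (36.2 and 42.1) each overlapped its neighbour in this order. Neat1 was lowest at 2.51 ± 1.24 and 2.59 ± 0.626 CPM per kilobase, with a longest transcript of 20771 bases. How fully the capture of polyadenylated RNA took in each transcript form was not tested. The order, at the top and below it, depends on the transcript taken. The shortest annotated transcript was a length chosen after the values were seen. Per kilobase of it, the mean over all libraries was 4223 CPM for Malat1 and 3068 CPM for Gas5. Snhg1 (560) then stood above Snhg6 (331) and Snhg8 (269), and Snhg12 (194) above Snhg3 (153). Snhg5 (109) and Neat1 (74.6) were lowest. Where along a transcript the reads fall is not given in the sources used here.

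Across the 11 libraries, with each group centred on its own mean, the log2 CPM of Gas5 and Snhg8 moved together most closely of the 36 pairs of members (Pearson r = 0.94, permutation p = 0.00022 over 86400 permutations within groups, 0.0079 after Benjamini-Hochberg adjustment over the 36 pairs). Spearman's rho was 0.93 (permutation p = 0.0009, adjusted 0.0325), and r was 0.89 without the 2 libraries farthest from the median of Gas5, 0.98 within the 6 libraries of primer barcode 9 and 0.91 without anti-LAG-3 replicate 4. Snhg12 and Malat1 followed with r = 0.83 (permutation p = 0.00056, adjusted 0.010) and rho = 0.82 (permutation p = 0.0033, adjusted 0.060), which fell to 0.67 for r without the 2 farthest libraries and 0.64 without anti-LAG-3 replicate 4. No other pair passed. Of the 21 pairs among the 7 hosts, 20 had r above 0, with a median of 0.38. Without anti-LAG-3 replicate 4 only 10 of the 21 did, with a median of −0.023, so this count rests on that library. All pairs share the same libraries and library sizes.

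**Figure D5:**
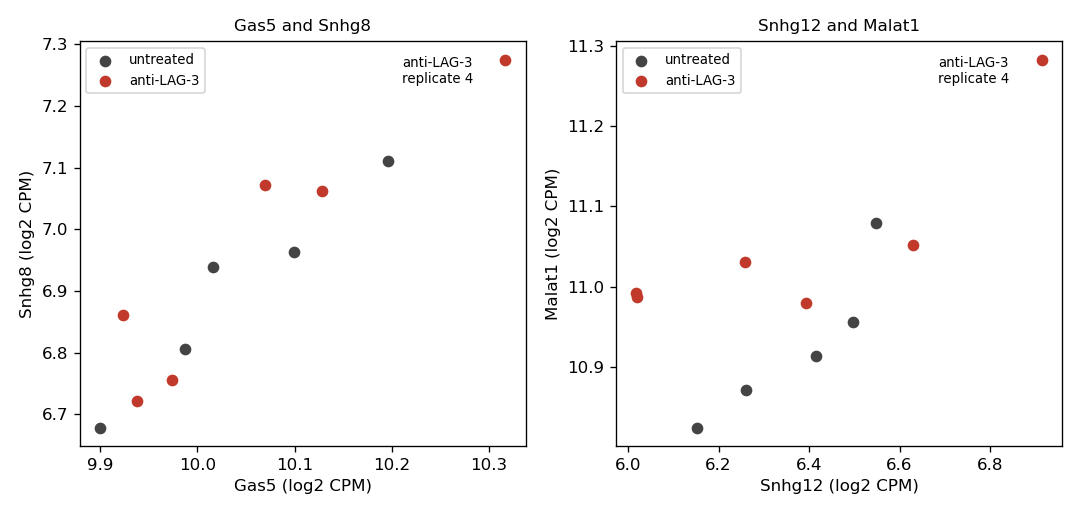
Log2 CPM of Snhg8 against Gas5 and of Malat1 against Snhg12, a point per library, dark for untreated and red for anti-LAG-3. Snhg8 rises with Gas5 over the whole range (r = 0.94 within groups), while the Snhg12 and Malat1 pair has anti-LAG-3 replicate 4 at its far end (r = 0.83 with it and 0.64 without it).

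As a description over the 11 libraries, the genes tested with the most similar log2 CPM, centred by group, were Impdh1 (r = 0.95) and Snhg8 (0.94) for Gas5, and Gas5 (0.94) and Bdh1 (0.93) for Snhg8. For Snhg1 they were Tmem29 (0.93) and Ccl5 (0.90), for Snhg3 Gm5507 (0.93) and Wdr83os (0.90), and for Snhg5 Trp53bp1 (0.91) and Anp32b (0.87). Snhg6 was closest to Gm6129 (0.97) and Rps12-ps12 (0.93), and Snhg12 to Lilr4b (0.90) and Rps12-ps14 (0.89). Malat1 was closest to Arih1 (0.98) and Med9 (0.86), and Neat1 to Lzic (0.95) and Gphn (0.93). These are the highest of the correlations with all other genes tested, over the same 11 libraries.

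Other host lncRNAs gave no call either. Of 16 listed, 15 were in the table, 7 passed the filter, 4 had a log2 fold change above 0 and 3 below, and 0 had an adjusted or unadjusted p under 0.05 in edgeR's quasi-likelihood test, with a median log2 fold change of 0.026. Zfas1, a host of box C/D snoRNAs, was the highest at 238 ± 28.3 CPM (SD, n = 5) and 242 ± 18.2 CPM (n = 6). Mir155hg, the host of the activation-linked miRNA miR-155, had the widest difference of this list, 0.28 on the log2 scale, at 54.2 ± 21.8 and 71.0 ± 44.6 CPM. Of 15 other lncRNAs 5 were tested, 1 above and 4 below 0, again with 0 calls, and they ran from −0.24 for Norad to 0.18 for Xist, the RNA that silences an X chromosome and the highest of the list at 296 ± 20.6 and 336 ± 51.4 CPM.

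The 19 protein-coding genes that host snoRNAs in their introns, most of them for ribosomal proteins and translation factors, were all tested, with 10 above and 9 below 0, a median log2 fold change of 0.0086 and 0 calls. Rpl13a, the highest, stood at 6212 ± 385 and 6117 ± 308 CPM, and the widest difference was that of Eif4a2, a translation initiation factor, at 0.20. All 9 snoRNP proteins, which bind snoRNAs and carry out the modifications, were tested, with 5 above and 4 below 0 and a median of 0.0033. Nop58, a core protein of box C/D particles, was the highest in the mean over all libraries, at 151 ± 14.3 and 172 ± 25.8 CPM, with a log2 fold change of 0.23. Rrp9, which binds the U3 snoRNA, was the 1 gene of these lists with an unadjusted p under 0.05: it stood at 35.4 ± 9.94 CPM in untreated and 20.6 ± 4.36 CPM in anti-LAG-3 libraries, a log2 fold change of −0.73 (SE 0.23), with an unadjusted edgeR p of 0.00384 that came to 0.9996 after adjustment. Fbl, the methyltransferase of box C/D particles, and Dkc1, the pseudouridine synthase of H/ACA particles, had log2 fold changes of 0.044 and −0.032.

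Factors that assemble snoRNPs (7 of 10 tested, 2 above and 5 below 0, median −0.095) and nonsense-mediated decay factors (8 of 10 tested, 5 above and 3 below 0, median 0.090) had 0 genes with an adjusted or unadjusted p under 0.05. Nolc1, a nucleolar chaperone of snoRNPs and the highest of the assembly factors, had a log2 fold change of −0.14, and Smg1, the kinase of the decay pathway and the highest of the decay factors, one of 0.12. The widest differences of these lists were 0.36 for Ruvbl1, an ATPase, and −0.48 for Smg9, a regulator of Smg1. For the partners of the nuclear lncRNAs, 10 of 11 paraspeckle proteins were tested, with 6 above and 4 below 0 and a median of 0.026. Hnrnpk, the highest, had a log2 fold change of −0.031. Nono, Sfpq and Pspc1, related core paraspeckle proteins, had log2 fold changes of 0.10, 0.099 and −0.27, that of Pspc1 being the widest of the list. Of the 8 nuclear speckle proteins, all tested, 7 lay above 0 (51.1% of all genes did) with a median of 0.063, from −0.068 for Son to 0.17 for Srsf3, with 0.089 for the highest, Srsf5, a splicing factor, and 0 had a p under 0.05 before or after adjustment.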

How the data were processed

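RNA was measured in 11 libraries. Per the study's methods and processing notes, the authors captured polyadenylated RNA, trimmed reads with cutadapt, mapped them to GRCm38 RNA with Bowtie2 (4.1 and 2.4.5 in the submitters' notes) and deposited raw counts per gene symbol. Strand, and how reads shared between genes were counted, are not given in the sources used here, so overlapping genes are uncertain.

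Conditions came from the labels, and replicates were numbered in accession order. The filter (filterByExpr) asked for 17.7 CPM in at least 5 libraries and a summed count of at least 15. TMM factors came from edgeR 4.0.16 (R 4.3.3), and CPM use total counts times these factors. The study's methods fit the same model with a likelihood ratio test. Here the quasi-likelihood test with Benjamini-Hochberg adjustment over 6949 genes was the main one (threshold 0.05), and the likelihood ratio test and DESeq2 1.42.0 were alternatives. Intervals are at 95%. Log2 CPM used a prior count of 2, and single genes were tested by exact two-sided permutation. The genes named are the 9 members, the genes of a list with the highest mean CPM or an unadjusted p under 0.05, and the 2 most correlated genes of each member. Fbl, Dkc1, Nono, Sfpq, Son, Rcc1 and the gene with the widest difference of each list were added after their values were seen. Members and lists were chosen with earlier results of these data known. Some marker genes and a marker of the sort are not reported here.

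Totals of 313524 to 1901374 counts set the precision. Without molecular identifiers, the 3-count floor covers counting error only. In simulated counts, 46.5% of 200 genes changed 1.5-fold among 6725 were recovered with 3 false calls, and 85% of 200 changed 2-fold among 6732 with 10. Since 200 genes were changed at once, these shares do not give the recovery of a lone changed gene or of a smaller change.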

Additional observations from a re-analysis of the deposited data

Results flagged for a closer look

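In the 18 sets of values looked at (9 genes in 2 groups), 2 held a library far from the others of its group, and chance gives such a gap in about 1 set of 20. Snhg3 had a log2 CPM of 5.50 in untreated replicate 5 (42.8 CPM on 24 counts), below the 53.3 to 56.4 CPM of the other untreated libraries. Malat1 had a log2 CPM of 11.28 in anti-LAG-3 replicate 4 (2490 CPM on 2108 counts), above the 2017 to 2121 CPM of the other anti-LAG-3 libraries, and this is also the library in which 8 of the 9 genes were highest.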

How the results depend on the processing

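Genes whose adjusted p was under 0.05 stayed at 0 with the likelihood ratio test, DESeq2, RLE normalization, total counts only, the CPM cutoff in at least 3 libraries, primer barcode as a covariate, only primer barcode 9, and without each library in turn (0 to 0), and was 7 with no filter, none of them a member. Members with an unadjusted p under 0.05 numbered 0 in place of 1 with the likelihood ratio test, DESeq2, RLE, total counts only and only primer barcode 9, and 0 to 1 without each library. The 1 member was Malat1, with an unadjusted p of 0.0466 in edgeR's main test. It had 0.0504 in the likelihood ratio test and 0.0916 in DESeq2. In edgeR's quasi-likelihood test it had 0.0505 with total counts only, 0.0556 with RLE and 0.0691 with only primer barcode 9. The cause was not tested. The median log2 fold change of the members ran from 0.024 to 0.13 over the 8 alternative settings and from −0.033 to 0.097 without each library. Malat1 stayed above 0 in all 19 alternatives, from 0.08 to 0.17, with an unadjusted p under 0.05 in 8 of them. Log2 fold changes that changed sign were those of Snhg1 with the barcode covariate (−0.00024), Snhg6 with no filter (0.0050), and Snhg3 (0.029) and Neat1 (−0.10) with only primer barcode 9. In that subset the differences in mean log2 CPM changed sign for Snhg1 (0.13), Snhg3 (0.045), Snhg6 (−0.034), Snhg12 (0.12) and Neat1 (−0.054). Without each library, log2 fold changes ran from −0.033 to 0.070 for Gas5, −0.083 to 0.080 for Snhg1, −0.20 to 0.042 for Snhg3, −0.089 to 0.049 for Snhg6, −0.073 to 0.17 for Snhg12 −0.14 to 0.16 for Neat1, 0.12 to 0.32 for Snhg5 and 0.017 (without anti-LAG-3 replicate 4) to 0.14 for Snhg8. Differences in mean log2 CPM then ran from −0.033 to 0.058 for Gas5, −0.098 to 0.051 for Snhg1, −0.087 to 0.10 for Snhg6, −0.0051 to 0.11 for Snhg8, −0.11 to 0.068 for Snhg12 and −0.13 to 0.39 for Neat1. No paired analysis was possible because the labels give no replicate numbers shared by the groups. An index number in the titles is shared by untreated replicates 2 and 3 and anti-LAG-3 replicate 5, and another by untreated replicates 4 and 5. What it stands for is not given in the sources used here, and its part was not tested. Depth limits Snhg3, Snhg5 and Neat1 most, with 8 to 12 counts in their lowest library.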
